A study of Homo sapiens with 4 samples.

Results

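The A20 gene TNFAIP3 and 9 further genes tied to the negative feedback of NF-kB signalling, some of which can also promote it, were followed in the lymphoma line SU-DHL-2, established from a human diffuse large B-cell lymphoma, after exposure to Spautin-1. The 10 genes are the inhibitors of NF-kB NFKBIA, NFKBIB, NFKBIE and NFKBIZ, A20 itself with its binding partners TNIP1 and TNIP2, the deubiquitinases CYLD and OTUD1, and the ubiquitin ligase gene BIRC3. They were taken by symbol, and all 10 were found among the 61267 genes of the deposited table. Wild-type cells of this line received either solvent, called vehicle here, or Spautin-1, an inhibitor of the deubiquitinases USP10 and USP13, at 10 µM for 36 h, and 2 RNA sequencing libraries were made for each group. The solvent and the time in vehicle are not named in the labels. A single line stands for the disease here, and nothing in the labels says that the replicates were separate cultures, so every p-value rests on the spread among 4 samples that may differ only technically.

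NF-kB transcription factors wait in the cytoplasm bound to inhibitor proteins of the IkB family. Receptor signals build ubiquitin chains on adaptor proteins, the chains recruit the IkB kinase complex, and phosphorylated IkB is degraded, which frees NF-kB to enter the nucleus. Several of the genes that NF-kB then switches on encode its own brakes: new IkB alpha recaptures the dimers, and A20 and CYLD take down or block the ubiquitin chains. In activated B-cell-like lymphoma, in which NF-kB signalling is chronically on, A20 is a frequently inactivated tumour suppressor. Only RNA was measured here, so neither A20 protein nor its activity was tested. Whether TNFAIP3 is intact in this line was not examined.

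The stretches of DNA before the start sites are shown first for the genes that changed most, because several carry recognition sites of NF-kB. Promoter windows of 250 bases before to 50 bases after a RefSeq start (GRCh38.p14) were on hand for 9 of the 10 genes, in 14 windows. They were searched on both strands for the 10-base NF-kB consensus and for a looser pattern of 3 G, 5 free bases and 2 C, which contains it. Each sequence below runs 5′ to 3′ on the strand of its gene and ends before the first transcribed base in the table. Capitals mark matches to the consensus; a match on the other strand stands here as its reverse complement.
TNFAIP3, chr6:137867009-137867213, plus strand: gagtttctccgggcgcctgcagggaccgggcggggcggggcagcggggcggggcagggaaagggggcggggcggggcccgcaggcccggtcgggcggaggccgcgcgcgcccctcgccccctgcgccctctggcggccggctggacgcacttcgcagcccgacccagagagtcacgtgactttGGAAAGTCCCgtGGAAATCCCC
BIRC3, chr11:102317234-102317483, plus strand: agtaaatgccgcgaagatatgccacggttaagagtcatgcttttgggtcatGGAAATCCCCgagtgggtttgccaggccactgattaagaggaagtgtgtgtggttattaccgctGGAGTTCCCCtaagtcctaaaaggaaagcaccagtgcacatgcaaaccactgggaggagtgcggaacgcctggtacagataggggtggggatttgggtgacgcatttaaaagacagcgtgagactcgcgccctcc
NFKBIA, chr14:35404750-35404999, minus strand: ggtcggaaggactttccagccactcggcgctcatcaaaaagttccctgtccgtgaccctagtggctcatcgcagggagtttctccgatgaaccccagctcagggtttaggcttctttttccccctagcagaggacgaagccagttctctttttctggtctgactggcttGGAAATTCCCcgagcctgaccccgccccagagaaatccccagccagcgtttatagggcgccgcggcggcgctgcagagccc
NFKBIZ, chr3:101827740-101827989, plus strand: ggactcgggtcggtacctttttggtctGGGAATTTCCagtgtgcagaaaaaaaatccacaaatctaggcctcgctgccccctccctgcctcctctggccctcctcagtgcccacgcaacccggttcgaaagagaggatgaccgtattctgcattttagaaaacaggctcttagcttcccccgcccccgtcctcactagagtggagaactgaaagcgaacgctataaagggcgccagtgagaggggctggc
OTUD1, chr10:23438825-23439074, plus strand: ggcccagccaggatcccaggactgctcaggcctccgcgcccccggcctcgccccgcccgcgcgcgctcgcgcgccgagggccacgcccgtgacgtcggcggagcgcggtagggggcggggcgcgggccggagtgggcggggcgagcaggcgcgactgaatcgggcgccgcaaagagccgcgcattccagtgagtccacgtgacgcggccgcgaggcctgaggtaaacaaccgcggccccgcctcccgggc

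TNFAIP3 held a pair of consensus matches, GGGACTTTCC and GGGGATTTCC, both on the strand opposite to the gene. The nearer one had its leftmost base at position -55 from the RefSeq start. That start lies beyond the first transcribed base in the table, so the printed sequence ends with this match. All positions here count from RefSeq starts. BIRC3 also held a pair, GGGGATTTCC and GGGGAACTCC, at -199 and -135. NFKBIA had GGGAATTTCC at -81, and the same letters stood at -223 of the first NFKBIZ start. TNIP1 had GGGACTTTCC at -42 of one of its starts, beyond the first transcribed base that the table places in that window. OTUD1, the gene with the highest fold change of the set, had no consensus match in its window, and neither did TNIP2. Matches also lay in windows of NFKBIB and CYLD, which were not called higher. In all, 7 of the 9 genes had a consensus match in some window, as against 8.60% of the 11169 tested genes with windows. By window the figures were 9 of 14 and 5.91% of 35116. The looser pattern was present in all 9 genes, as against 77.4% of tested genes with windows, and in all 14 of their windows, as against 58.7% of the 35116. The genes were chosen for their tie to NF-kB and some have several windows, so these shares are no independent result. A match describes letters only and shows no binding.

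**Figure D1:**
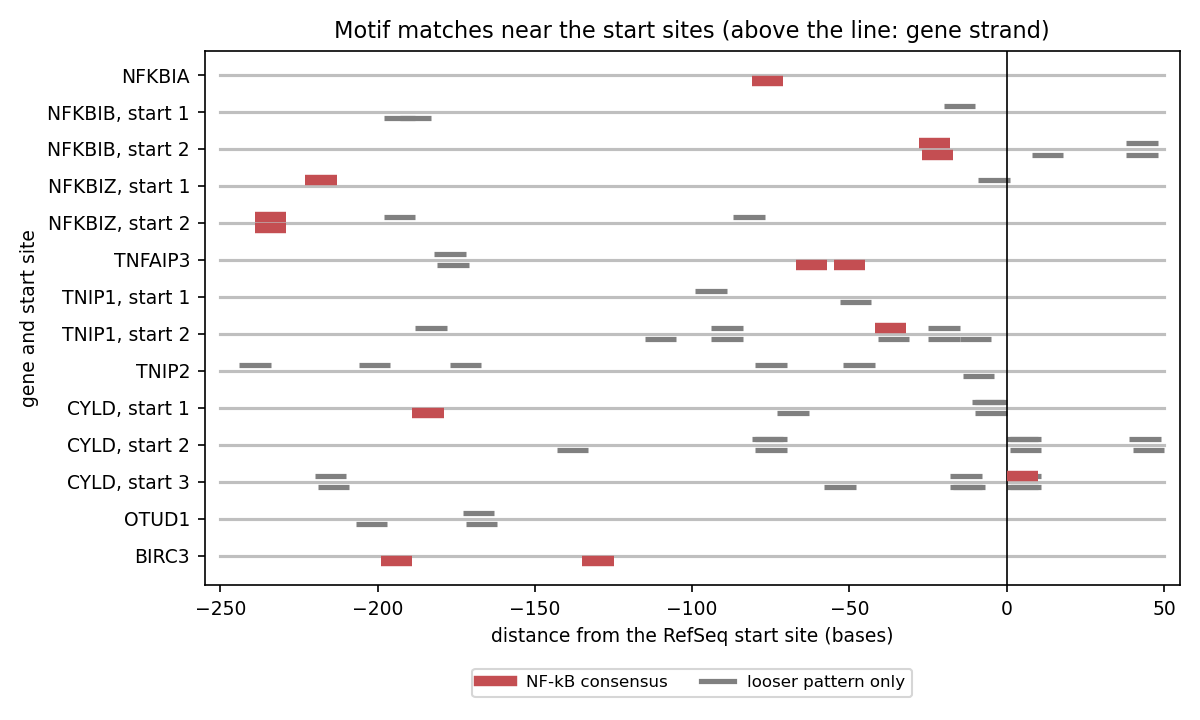
Position of motif matches in the RefSeq windows of 9 genes, in bases from the start site; marks above each line lie on the strand of the gene and marks below it on the other. Thick marks are matches to the NF-kB consensus, found in 9 of 14 windows, and thin marks match only the looser pattern.

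Spautin-1 cells held more mRNA for 7 of the 10 genes, and no gene of the set was called lower. Calls were made by the edgeR quasi-likelihood test over all 18368 genes that passed a filter on low counts, with a Benjamini-Hochberg adjusted p under 0.05. All 10 genes passed the filter. Of all genes tested, 11.5% were called higher and 10.5% lower. At an unadjusted p under 0.05, 7 genes were higher and 1, NFKBIB, was lower. Of all 18368 genes tested, 3253 were higher and 3177 lower at that unadjusted p. DESeq2 and limma-voom each gave 7 and 0. Over all genes DESeq2 called 1948 higher and 1832 lower, and limma-voom 2099 and 1879. The median log2 fold change of the 10 was 0.89, and that of all genes tested was -0.01. In 8 genes both Spautin-1 libraries lay above both vehicle libraries and in 1 below, which was so for 30.8% and 30.6% of all genes. With 2 libraries a group, the smallest p of an exact permutation test is 0.333. The call of TNIP1 was lost in a fit leaving out either Spautin-1 library. In a bulk culture, fewer cells of a kind and less RNA per cell cannot be told apart.

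TNFAIP3 encodes A20, a ubiquitin-editing enzyme that cuts and binds the chains on which NF-kB signalling runs. It stood at 22.0 and 22.3 CPM (counts scaled to library size with TMM factors) in the vehicle libraries and at 165 in each of the Spautin-1 libraries. The replicates were nearly alike and the groups lay far apart. The rise was 7.44-fold, a log2 fold change of 2.89 ± 0.12 (± SE, n = 2 each; edgeR adjusted p = 4.41e-08), rank 106 of 18368 by log2 fold change. The gene lies on chromosome 6 from 137867214 to 137883314 (GRCh38, plus strand). The long non-coding RNA gene WAKMAR2 runs across its start on the other strand and shares 95 exonic bases with it. WAKMAR2 had 3.57 and 2.41 CPM in vehicle and 3.09 and 4.7 CPM in Spautin-1 and was not called (edgeR adjusted p = 0.397). The sources used here do not say whether the counting used strand, so reads in the shared bases cannot be told apart.

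The A20 partners moved less. TNIP1 (ABIN1), which links A20 to ubiquitin chains, was the most abundant of the 10 genes per kb. It had 576 and 597 CPM in vehicle and 780 and 771 CPM in Spautin-1, groups that did not overlap. The rise was 1.32-fold (log2 0.40 ± 0.09, edgeR adjusted p = 0.00587). That call depended on having both treated libraries: without Spautin-1 replicate 1 the adjusted p was 0.0706, and without replicate 2 it was 0.0577, at log2 values of 0.38 and 0.42. TNIP2 (ABIN2), a second A20-binding protein, which also stabilises the kinase TPL2, had 55.7 and 83.2 CPM in vehicle and 116 and 125 CPM in Spautin-1. It rose 1.73-fold (log2 0.79 ± 0.16, edgeR adjusted p = 0.00441). The size of that change turned on the vehicle library used: 0.53 without vehicle replicate 1 and 1.11 without vehicle replicate 2, called in both fits.

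Within each library the ratio of TNFAIP3 to TNIP1, taken as counts per kb, does not depend on how libraries are scaled. It was 0.0343 and 0.0336 in vehicle and 0.19 and 0.192 in Spautin-1. The A20 message was therefore 5.63 times as high relative to that of its partner in the treated cells.

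**Figure D2:**
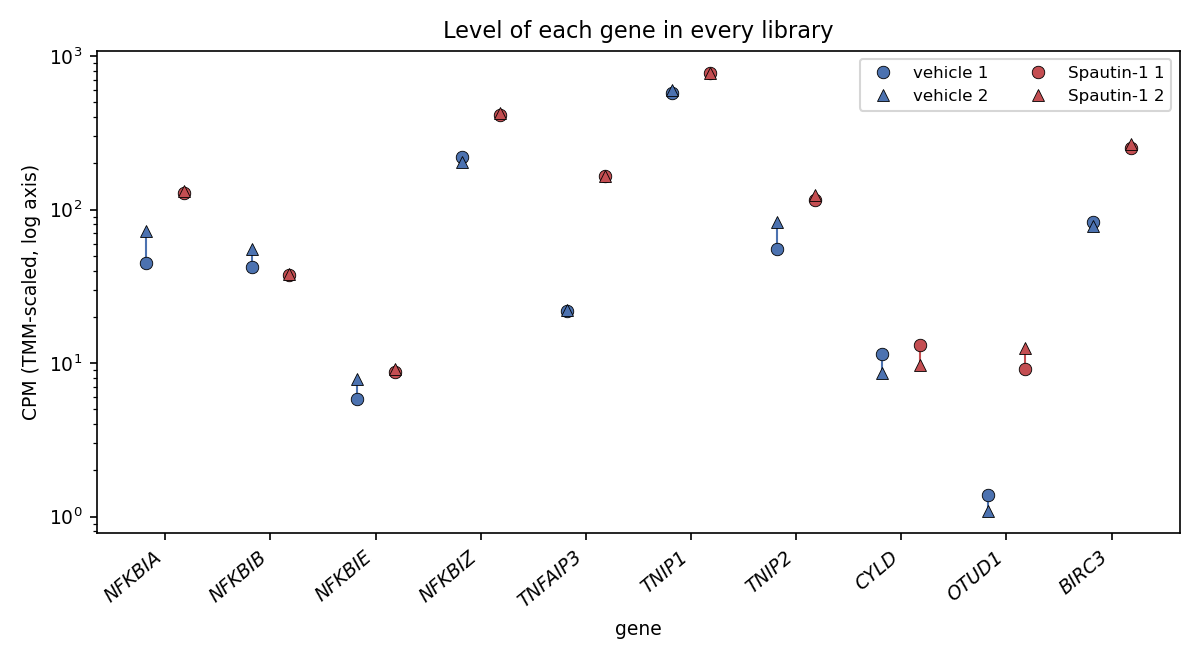
Level of each gene in the 4 libraries, in CPM on a log axis; blue marks are vehicle, red marks Spautin-1, circles replicate 1 and triangles replicate 2, joined by a line within a group. TNFAIP3 goes from 22.0 and 22.3 CPM to 165 CPM, while the groups of CYLD overlap.

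Among the IkB genes, NFKBIA and NFKBIZ were called higher, and NFKBIB and NFKBIE were not called. NFKBIA encodes IkB alpha, the inhibitor that NF-kB itself renews fastest. It had 44.9 and 72.8 CPM in vehicle and 128 and 133 CPM in Spautin-1, a rise of 2.21-fold (log2 1.15 ± 0.18, edgeR adjusted p = 0.000884). The vehicle libraries differed 1.62-fold, and both lay below the treated ones. The log2 value was 0.84 without vehicle replicate 1 and 1.54 without vehicle replicate 2. NFKBIZ encodes IkB zeta, a nuclear member of the family that acts as a cofactor of NF-kB at a subset of its targets and can activate as well as repress. It went from 222 and 204 CPM to 414 and 425 CPM, 1.97-fold (log2 0.98 ± 0.10, edgeR adjusted p = 3.93e-05). NFKBIZ shares 194 exonic bases, 3.29% of its exonic length, with NXPE3 on the same strand. NXPE3 was not called (edgeR adjusted p = 0.323).

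NFKBIB, which encodes IkB beta, the slower inhibitor, pointed the other way without passing the test. Its values were 42.5 and 55.2 CPM in vehicle and 37.5 and 38.3 CPM in Spautin-1 (log2 -0.37, unadjusted 95% interval -0.67 to -0.06; edgeR adjusted p = 0.0862). Without vehicle replicate 1 it was called lower at -0.54, and without vehicle replicate 2 it was at -0.16 (adjusted p = 0.336). NFKBIE, which encodes IkB epsilon, had only 5.87 and 7.87 CPM in vehicle and 8.72 and 9.21 CPM in Spautin-1. Its log2 fold change of 0.38 (95% interval -0.06 to 0.82; edgeR adjusted p = 0.203) was not called, except without vehicle replicate 2 (0.61, adjusted p = 0.0275). The interval leaves room for a small fall as well as for a rise of the size seen in TNIP2. The count ratio of NFKBIA to NFKBIB per kb went from 0.724 and 0.903 in vehicle to 2.34 and 2.37 in Spautin-1. Per kb of exonic length, NFKBIA was the lower of the pair in both vehicle libraries and the higher in both Spautin-1 libraries. In raw counts the ratio was above 1 in both groups, at 1.06 and 1.32 in vehicle and 3.42 and 3.46 in Spautin-1. The order in vehicle therefore depends on the exonic lengths used.

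The 2 further deubiquitinases behaved differently from each other. OTUD1, a single-exon gene for an OTU-family enzyme reported to limit inflammatory signalling, was the least abundant of the 10 in vehicle, at 48 and 42 reads (1.38 and 1.09 CPM). It reached 344 and 436 reads (9.17 and 12.6 CPM) in Spautin-1. The rise of 8.81-fold (log2 3.14 ± 0.26, edgeR adjusted p = 9.74e-06) was the largest of the 10, at rank 85 of 18368, and in fits without 1 library it ran from 2.90 to 3.34. Its 95% interval, 2.57 to 3.71, holds the value of TNFAIP3, and the difference between the genes was not tested. CYLD, which removes linear and K63-linked ubiquitin chains from NF-kB adaptors, had 11.5 and 8.57 CPM in vehicle and 13.1 and 9.67 CPM in Spautin-1. The groups overlapped, and the log2 fold change was 0.18 (95% interval -0.27 to 0.63; edgeR adjusted p = 0.583). Its sign turned, to -0.018 and -0.066, in the fits lacking vehicle replicate 2 and Spautin-1 replicate 1.

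BIRC3 encodes cIAP2, a ubiquitin ligase that is induced by NF-kB and both feeds the canonical pathway and keeps the alternative pathway off by marking the kinase NIK for destruction. It went from 82.6 and 78.5 CPM to 251 and 266 CPM, 3.21-fold (log2 1.68 ± 0.10, edgeR adjusted p = 1.17e-06). Its neighbour and closest relative BIRC2, which encodes cIAP1 and starts 7808 bases beyond its end, rose 1.73-fold from 22.1 and 23.3 CPM to 37.3 and 41.3 CPM (edgeR adjusted p = 0.0014). On the other side YAP1 was nearly silent, at 0.155 to 0.506 CPM over the 4 libraries.

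**Figure D3:**
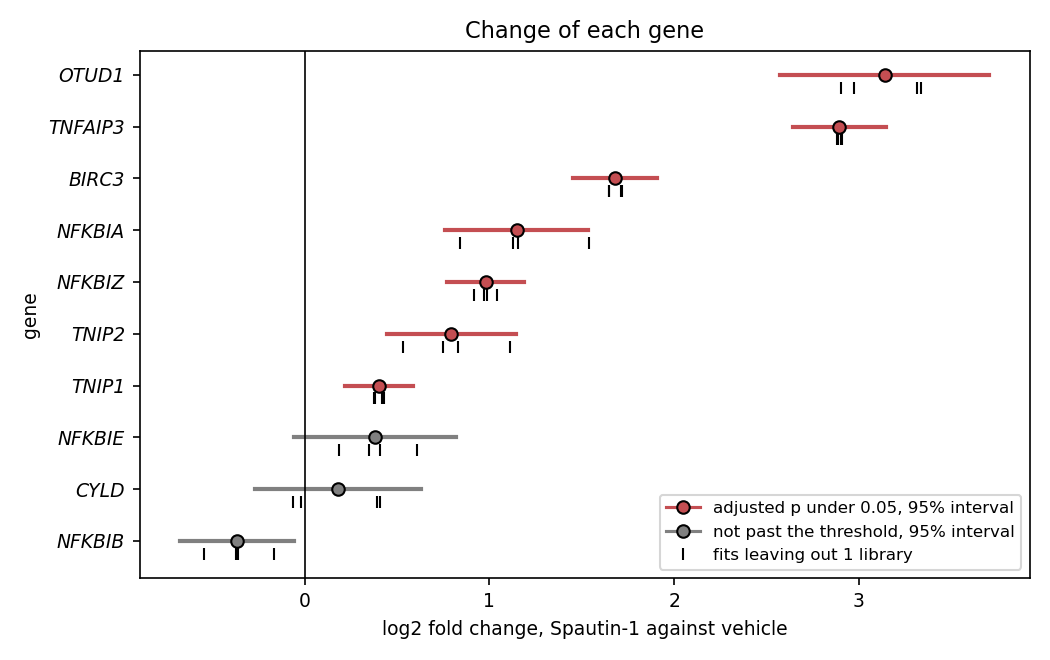
Log2 fold change of each gene with its unadjusted 95% interval; red marks passed the adjusted p of 0.05 and grey marks did not, and short ticks are the 4 fits that leave out 1 library. OTUD1 and TNFAIP3 stand highest at 3.14 and 2.89, and the ticks of CYLD fall on both sides of 0.

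Set in order by level per kb of exon (RPKM), the vehicle cells ran from TNIP1 at 101 ± 2.55 RPKM (mean ± SD, n = 2) through NFKBIZ, TNIP2, NFKBIB, NFKBIA, BIRC3, TNFAIP3 at 3.44 ± 0.0403 and NFKBIE to CYLD and OTUD1 at 0.374 ± 0.0632. The library ranges overlapped between TNIP2 and NFKBIB and between NFKBIB and NFKBIA. In Spautin-1 the order began again with TNIP1 at 134 ± 1.06 RPKM, NFKBIZ and TNIP2, followed by NFKBIA, BIRC3, TNFAIP3 at 25.6 ± 0.0487, NFKBIB, NFKBIE, OTUD1 and CYLD. Here NFKBIE and OTUD1 overlapped. TNFAIP3 had moved past NFKBIB, and OTUD1 past CYLD.

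The vehicle libraries differed from each other by GC content, and several genes of the set also differed between them. Protein-coding genes averaging 4 CPM or more were split into 5 equal bins by GC content. The median difference of vehicle replicate 2 from replicate 1 was 0.25 log2 units in the bin richest in GC and -0.14 in the poorest. Between the Spautin-1 libraries the same medians were 0.02 and -0.01. NFKBIA, at 53.1% GC, was 1.62-fold higher in vehicle replicate 2. The median difference between the vehicle libraries in its bin, 50.2% to 56.8% GC, was only 0.02 log2 units. NFKBIB and NFKBIE, at 60.5% and 61.0% GC, were 1.30-fold and 1.34-fold higher in vehicle replicate 2. TNIP2, the richest in GC at 61.8%, was also higher there, as given above. TNIP1, at 59.2%, differed only 1.04-fold and TNFAIP3 1.02-fold. NFKBIZ and BIRC3 stood at 0.918 and 0.951 of vehicle replicate 1. Replicates also differed in genes not rich in GC, and within Spautin-1. CYLD, at 39.7% GC, stood in replicate 2 at 0.742 of replicate 1 in vehicle and 0.739 in Spautin-1. For OTUD1, at 49.9% GC, the same ratios were 0.787 and 1.37. With an offset for GC content the same number of the 10 was called, 7 higher and 0 lower. Over all genes, alternatives that kept all 4 libraries, including an adjusted p under 0.01, called 1077 to 2615 higher and 861 to 2540 lower. With the offset TNIP2 was at 0.92, NFKBIA at 1.14, NFKBIB at -0.27 (edgeR adjusted p = 0.0891) and NFKBIE at 0.49 (adjusted p = 0.0592). The part of GC content in the difference between vehicle libraries was not tested gene by gene.

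**Figure D4:**
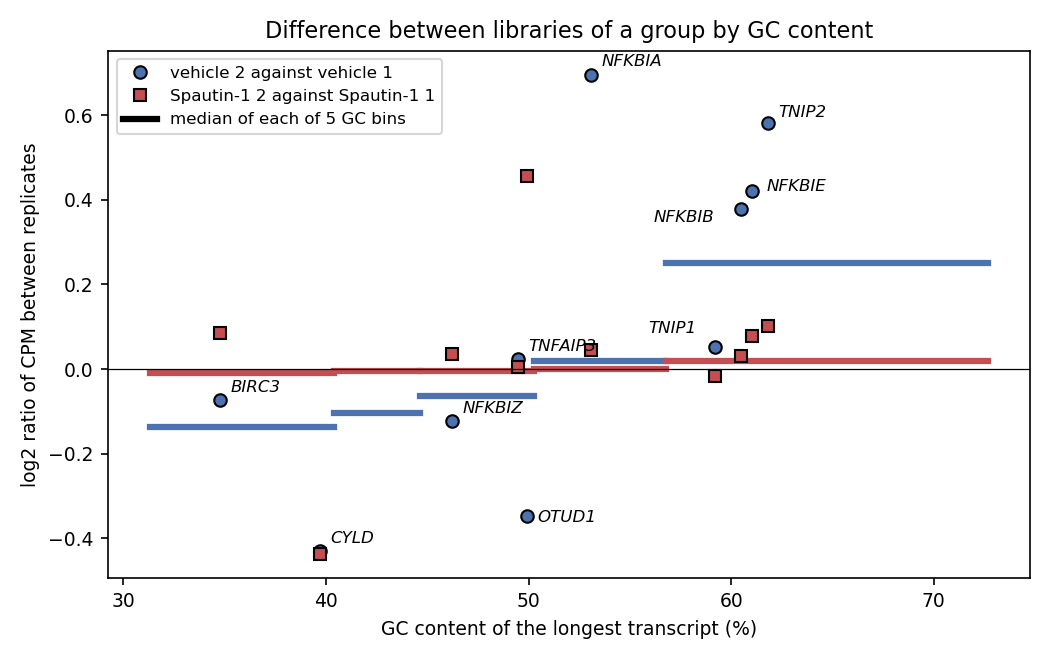
Log2 ratio of CPM between replicates of a group for each gene against the GC content of its longest transcript; blue circles are vehicle 2 against vehicle 1 and red squares Spautin-1 2 against 1, and horizontal bars in the same colours are medians of 5 bins of protein-coding genes. The richest bin lies at 0.25 in vehicle and at 0.02 in Spautin-1.

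Other negative regulators of NF-kB were taken as a list of 24 genes, of which 23 were tested. Of these, 8 (34.8%) were called higher and 1 (4.35%) lower, as against 11.5% and 10.5% of all genes tested. The median log2 fold change of the list was 0.28. TNIP3 (ABIN3), the third A20-binding protein, rose 1.70-fold from 304 and 292 CPM to 526 and 489 CPM (edgeR adjusted p = 0.00018). TANK, an adaptor that restrains TRAF signalling, rose 1.60-fold (adjusted p = 0.00436), a call lost without Spautin-1 replicate 2 (adjusted p = 0.118). ZC3H12A, the RNase regnase-1 that degrades cytokine mRNAs, fell from 7.37 and 7.92 CPM to 2.83 and 3.64 CPM (2.37-fold, edgeR adjusted p = 0.0023). The numbers of the list called higher and lower moved when 1 library was left out. So did the numbers over all genes tested, given below.

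Of 33 NF-kB subunits, adaptors and kinases, all tested, 5 were called higher and 5 lower, with a median log2 fold change of -0.09. Each count was 15.2% of the list, near the 11.5% and 10.5% of all genes tested, and is no result about the list. REL, the c-Rel subunit prominent in B cells, rose 1.47-fold (edgeR adjusted p = 0.00236), and NFKB2, the precursor of the alternative pathway, 1.64-fold (adjusted p = 0.00777). NFKB1 (log2 0.23, adjusted p = 0.159), RELB (0.09, 0.784) and RELA (-0.33, 0.188) were not called, nor was TRAF1, the adaptor to which cIAP2 binds with TRAF2 (0.16, 0.32). NFKB1 was called higher without vehicle replicate 1 (0.32, adjusted p = 0.00571). RELA was called lower without vehicle replicate 1 (-0.63), under the replicate block (adjusted p = 0.0457) and in the unfiltered table (adjusted p = 0.036), and was at 0.039 without vehicle replicate 2. TAB2, which reads ubiquitin chains for the kinase TAK1, rose 1.74-fold, and TRAF2, the adaptor that brings cIAP2 to receptors, fell 2.21-fold from 44.8 and 53.9 CPM to 22.5 and 22.2 CPM (edgeR adjusted p = 0.000159). The counts of the list moved when 1 library was left out, and so did those of all genes tested, given below. REL missed the threshold without Spautin-1 replicate 1 (adjusted p = 0.0505).

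Of 40 genes known to be induced by NF-kB, 37 were tested. Among them 18 (48.6%) were called higher and 2 (5.41%) lower, as against 11.5% and 10.5% of all genes tested. The median log2 fold change was 0.55. This list shares REL, NFKB1, NFKB2, RELB and TRAF1 with the machinery and BCL3 with the regulators. CCR7, the chemokine receptor that guides lymphocytes into lymph nodes, rose 6.36-fold from 4.95 and 4.87 CPM to 29.3 and 33.2 CPM (edgeR adjusted p = 1.07e-06), and the adhesion receptor CD44 2.73-fold from 263 and 252 CPM to 709 and 698 CPM. CD83, a surface marker of activated B cells, fell 1.49-fold from 609 and 708 CPM to 437 and 444 CPM (edgeR adjusted p = 0.00148). The counts of this list also changed when 1 library was left out, as did those of all genes tested, given below.

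**Figure D5:**
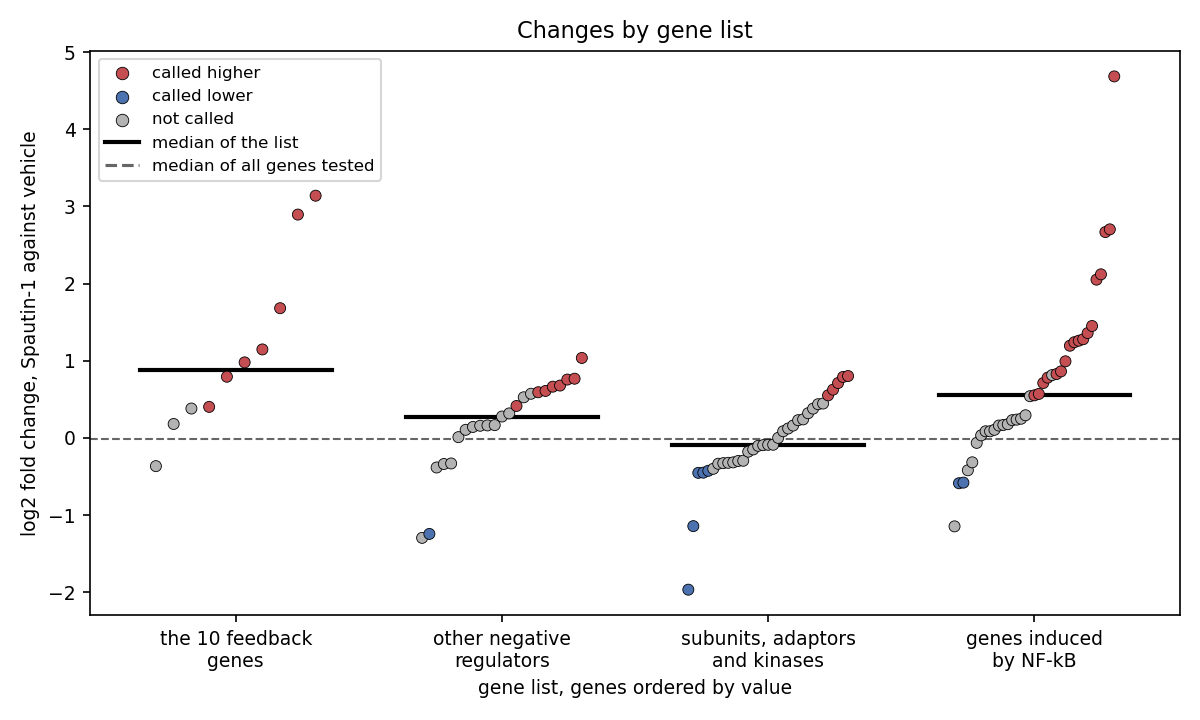
Log2 fold change of every tested gene in 4 lists, red where called higher, blue where called lower and grey where not called; black bars are list medians and the dashed line is the median of all genes tested. Medians run from -0.09 for the subunits, adaptors and kinases to 0.89 for the 10 feedback genes.

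The genes most like TNFAIP3 were sought among 8684 protein-coding genes averaging 5 CPM or more, by the Euclidean distance between the 4 log2 CPM values after centring on the vehicle mean. With 4 libraries this finds genes of like fold change and little else. PPP1R15A, a phosphatase subunit that reverses the stress block of translation, was nearest at 0.0455, followed by the glutaredoxin GLRX at 0.192, the stress-induced chaperone HSPA6 at 0.213, PRDM1, whose product Blimp-1 is a transcriptional repressor that drives plasma-cell differentiation, at 0.317, and CCR7 at 0.362. Their log2 fold changes lay between 2.67 and 3.03, and all 5 were called, both of which follow largely from how they were chosen.

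The nearest tested genes on each side of the 10 were partly called and partly not. Next to TNFAIP3, PERP, 205191 bases away, rose 1.98-fold from 15.4 and 13.4 CPM to 25.7 and 31.2 CPM (edgeR adjusted p = 0.00103), and IFNGR1 on the other side was not called (log2 0.38, adjusted p = 0.0705), except without vehicle replicate 1 (0.51, adjusted p = 0.000867) and under the replicate block (adjusted p = 0.04). CCER2, which ends 87 bases beyond NFKBIB and is read towards it, fell from 1.96 and 2.46 CPM to 0.453 and 0.577 CPM (edgeR adjusted p = 0.00393), and RINL on its other side rose 1.56-fold, a call lost without Spautin-1 replicate 1 (adjusted p = 0.0652). RALGAPA1 beside NFKBIA and FAM193A beside TNIP2 rose 1.51-fold and 1.38-fold. Both calls were lost without Spautin-1 replicate 1, and that of FAM193A also without replicate 2. No neighbour of TNIP1, NFKBIE, NFKBIZ, CYLD or OTUD1 was called with all 4 libraries and the main settings. SLC35B2 beside NFKBIE was just short of the threshold (log2 0.78, edgeR adjusted p = 0.0514) and was called without vehicle replicate 1 (adjusted p = 0.0236), with the replicate block (0.0316) and with the GC offset (0.0372). Without vehicle replicate 1, ANXA6 beside TNIP1 went from a log2 fold change of 0.18 to 0.24. PSMA6 beside NFKBIA went from 0.24 to 0.33 in that fit. Values under the alternatives were not taken for the neighbours of NFKBIZ, CYLD and OTUD1. SIRT2 overlaps NFKBIB by 40 exonic bases on the other strand and was not called (adjusted p = 0.276).

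The libraries summed to between 34115420 and 38362526 counts. B-lineage markers were all present, 10 of 10 averaging 1 CPM or more, with a summed level of 776 to 871 CPM in vehicle and 1185 to 1210 CPM in Spautin-1; IRF4 is counted both there and among the induced genes. The markers went both ways: MS4A1 was at 442 and 379 CPM in vehicle and 629 and 608 CPM in Spautin-1, PAX5 at 158 and 132 against 151 and 147 CPM, and CD79B at 16.9 and 17.1 against 12.8 and 12.7 CPM. None of 7 T, 4 NK, 6 myeloid or 6 stromal and endothelial markers reached a mean of 1 CPM. Of 4 epithelial markers 2 did, which were EPCAM at 45.5 and 51.7 CPM in vehicle and 50.5 and 54.7 CPM in Spautin-1, and KRT8. The part of the higher B-lineage sum in the results was not tested. Among counts of 1 to 20 reads, 74.3% to 76.8% were even numbers in each library, as against 52.5% to 53.2% of counts over 1000. The sources used here do not say whether both mates of a read pair were counted; if they were, printed read counts such as those of OTUD1 are about 2 times the number of sequenced fragments. With every count halved, the 10 genes gave the same 7 and 0 calls. Calls over all genes in that fit lie within the range given above for alternatives that kept all 4 libraries.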

How the data were processed

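RNA from 2 vehicle and 2 Spautin-1 libraries was isolated with TRIzol for stranded mRNA sequencing, per the labels' protocols. Trimmomatic 0.36, featureCounts (Subread 1.5.1), edgeR 3.12.1 and the build GRCh38 are named in the submitters' processing notes; the sources used here do not name the aligner, annotation release, strand setting or treatment of mates and multi-mapped reads. The authors deposited raw read counts for each gene beside exon coordinates and another column, exonic length, per the file headers.

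The 61267 genes were filtered with filterByExpr (minimum count 10, minimum total 15), which left 18368, and scaled by TMM in edgeR 4.0.16 (R 4.3.3). Groups were compared with the two-sided quasi-likelihood F test at a threshold of 0.05 after Benjamini-Hochberg adjustment across the tested genes. SE is the log2 fold change over the square root of F, and intervals use the moderated degrees of freedom. RPKM is CPM per kb of deposited exonic length. GC content came from GENCODE 29 transcripts for 89.8% of tested genes. The test was checked on simulated data.

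The 10 genes, the gene lists and the naming rule were chosen with earlier results of these data known. Named are the 10 genes, the NF-kB subunits and TRAF1, per list the called genes of smallest p (2 in the main direction, 1 in the other; the machinery list tied), the 5 genes most like TNFAIP3, and overlapping or neighbouring genes. Alternatives were RLE, upper quartile and library size scaling, a filter of 1 CPM in 2 libraries or none, limma-voom (limma 3.58.1), DESeq2 1.42.0, an adjusted p under 0.01, a replicate block, and leaving out each library. An offset for GC content (loess, span 0.3) and halved counts were added after seeing the data.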

Additional observations from a re-analysis of the deposited data

How the results depend on the processing

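Of 150 values of the 10 genes under alternatives, 143 kept their direction and their side of the threshold. TNFAIP3 stayed between 2.84 and 2.91 on the log2 scale in all 15 alternatives, OTUD1 between 2.90 and 3.34 and BIRC3 between 1.53 and 1.72, and each was called in all of them. Over the whole table, an adjusted p under 0.01 gave 1077 genes higher and 861 lower, and leaving out 1 library gave between 1067 and 2981 higher and between 780 and 2785 lower. Leaving out 1 library called 6 to 8 of the 10 genes higher and 0 to 1 lower; the 1 was NFKBIB, without vehicle replicate 1. A fit with 1 library in a group assumes that it varies like the other group. Signs turned in 3 genes when 1 library was left out. CYLD ran from -0.066 without Spautin-1 replicate 1 to 0.41 without vehicle replicate 1, and was at -0.018 without vehicle replicate 2. RELB ran from -0.13 without vehicle replicate 1 to 0.34 without vehicle replicate 2, with -0.04 without Spautin-1 replicate 1. RELA ran from -0.63 without vehicle replicate 1, where it was called, to 0.039 without vehicle replicate 2. No turned value was called, and the cause was not tested. The ratio of TNFAIP3 to NFKBIA in counts per kb was 0.257 and 0.162 in vehicle and 0.675 and 0.656 in Spautin-1. The mean ratio rose 3.18-fold. Gene length cancels in this change, so raw counts give the same value by construction and are no check of it.

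No label ties equal replicate numbers to one culture or day, and deviations of same-numbered libraries from their group means correlated at -0.0015, so the replicate block is only an alternative. With the replicate block 2615 genes were higher and 2485 lower, 7 of the 10 genes were higher and 1, NFKBIB at -0.35 (edgeR adjusted p = 0.0392), lower. With 2 libraries a group, an absent call for CYLD, NFKBIE or NFKBIB does not show that these genes were stable.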

Other observations

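Of the lists, 4 genes had too few reads to be tested. The activation antigen CD69 had 0 and 0 reads in vehicle and 16 and 8 in Spautin-1. The feedback inhibitor of cytokine signalling SOCS1 had 6 and 8 reads in vehicle and 2 and 18 in Spautin-1, CCL4 had 4 and 0 against 4 and 6, and CCL22 had 0 and 0 against 2 and 0. These genes were chosen for mention after their counts were seen, and no fold change is given.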
